A study of Homo sapiens with 16 samples.

Results

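The 10 genes described here are the receptor tyrosine kinase gene FGFR1 and 9 genes whose products act as feedback on, or as transcriptional output of, the RAS and ERK pathway downstream of such receptors: SPRY1, SPRY2, SPRY4, SPRED1, SPRED2, ETV4, ETV5, PHLDA1 and CCND1. They were taken by symbol from a table of 34618 genes, and all 10 were found. RNA sequencing covered U937 and KG1A, 2 human myeloid cell lines, in 16 libraries. The groups were U937 with 10 µM NEL, U937 with the vehicle DMSO, KG1A with 10 µM NEL and KG1A with DMSO, with 4 libraries in each. The medium of every group was RPMI with dialyzed serum. The labels spell out neither the agent NEL nor the treatment time. They also do not state that each library is a culture of its own, and the p-values then reflect only a spread among libraries that may be technical.

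Fibroblast growth factor receptors are kinases at the cell surface that, once a ligand brings them together, recruit adaptors, load RAS with GTP and switch on the RAF, MEK and ERK kinases. ERK activity in turn raises transcripts of its own inhibitors. Sprouty proteins (SPRY genes) damp the signal between receptor and RAS, SPRED proteins bring the RAS inactivator neurofibromin to the membrane, and dual-specificity phosphatases such as DUSP6 dephosphorylate ERK. ETV4 and ETV5 are ETS transcription factors of the PEA3 group that respond to this pathway, PHLDA1 is an adaptor-like protein whose transcript follows ERK activity in many cells, and CCND1 encodes cyclin D1, which drives entry into the cell cycle. The KG-1 lineage, from which KG1A was derived, is known for a fusion that joins FGFR1 to FGFR1OP2, and counts per gene cannot show it.

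Total counts ran from 10641567 to 11777684 per library. CPM are counts scaled to the library total after its correction by a TMM factor, which offsets differences in RNA composition. Where a library shows no count, its level could still be as high as 0.255 to 0.282 CPM (3 counts of the total, counting error only). U937 carried its myeloid markers CD33, CD4, LYZ and SPI1, with CD34 and MPO close to 0 (at most 1.19 and 0.609 CPM in a library). KG1A carried CD34, at 834 CPM or more in every library, and the T-lineage transcripts CD3D and CD3E, while CD33, LYZ, MPO and CD4 were close to 0 (at most 1.93, 0.27, 0.631 and 0.0929 CPM). The 7 blood and myeloid markers summed to 1042 to 1086 CPM in U937 with NEL, against 664 to 705 CPM in U937 with DMSO. In KG1A the same sum was 1605 to 1731 CPM with NEL, against 1682 to 1780 CPM with DMSO. The markers of other cell types, 12 of 13 matched, summed to 33.1 to 37.7 CPM in U937 with NEL, against 12 to 15.2 CPM with DMSO, and to 139 to 150 CPM in KG1A with NEL, against 139 to 158 CPM with DMSO. HBB, which marks red cells, and PF4, which marks platelets, were at 0 in all groups, and the part of the marker shifts in the results below was not tested. In these bulk samples, fewer cells of a type and less RNA per cell cannot be told apart. Odd-numbered and even-numbered libraries differed from each other within every group, a split found in the data that the labels do not name, so values within each set are given beside the pooled ones.

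Values below are CPM unless RPKM (counts divided by exon length and library total, without TMM scaling) is named, and fold changes are log2 values ± SE. They come from edgeR's quasi-likelihood fit, its p adjusted by Benjamini-Hochberg across every gene tested, and calls were made where the adjusted p was under 0.05. In U937, 9 of the 10 genes passed the filter for low counts. FGFR1, SPRY1 and PHLDA1 rose with NEL, SPRY2, SPRY4, SPRED2 and ETV4 fell, and ETV5 and CCND1 were not called. Of the 14390 genes tested in U937, 69.3% were called, 34.6% higher and 34.7% lower, so 3 higher and 4 lower of 9 is near the background. The NEL and DMSO ranges did not overlap for 5 of the 9 genes, against 62.4% of all genes tested. In KG1A, 8 genes passed the filter. FGFR1 and ETV5 rose, SPRY2 and SPRED1 fell, and SPRY1, SPRED2, PHLDA1 and CCND1 were not called. Those 4 calls of 8 are close to the 47.2% called among the 14250 genes tested in KG1A, 23.6% in each direction. The ranges did not overlap for 2 of the 8 genes, against 42.2% of all. With the replicate number as a block, 4 genes rather than 2 were called lower in KG1A, SPRED2 (adjusted p = 0.0437) and CCND1 (0.0257) being the additions. The SPRED2 call was not made with the library set as covariate (0.054) or on summed libraries (0.0986), whereas CCND1 was called in both (0.028 and 0.0428). Summed were libraries 1 and 2, and libraries 3 and 4, so each sum holds an odd-numbered and an even-numbered library. The spread between sums therefore does not show the difference between the sets. CCND1 in KG1A was not called in the odd-numbered (adjusted p = 0.123) or even-numbered (0.208) libraries alone. The higher count of 2 was 1 without KG1A DMSO library 1, 2 or 4 or KG1A NEL library 1, and the lower count of 2 was 1 without KG1A DMSO library 2 or KG1A NEL library 3. The median log2 fold change of the tested genes was -0.11 in U937 and -0.08 in KG1A, against -0.00 over all tested genes in both lines. The genes thus moved in both directions in each line.

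**Figure D1:**
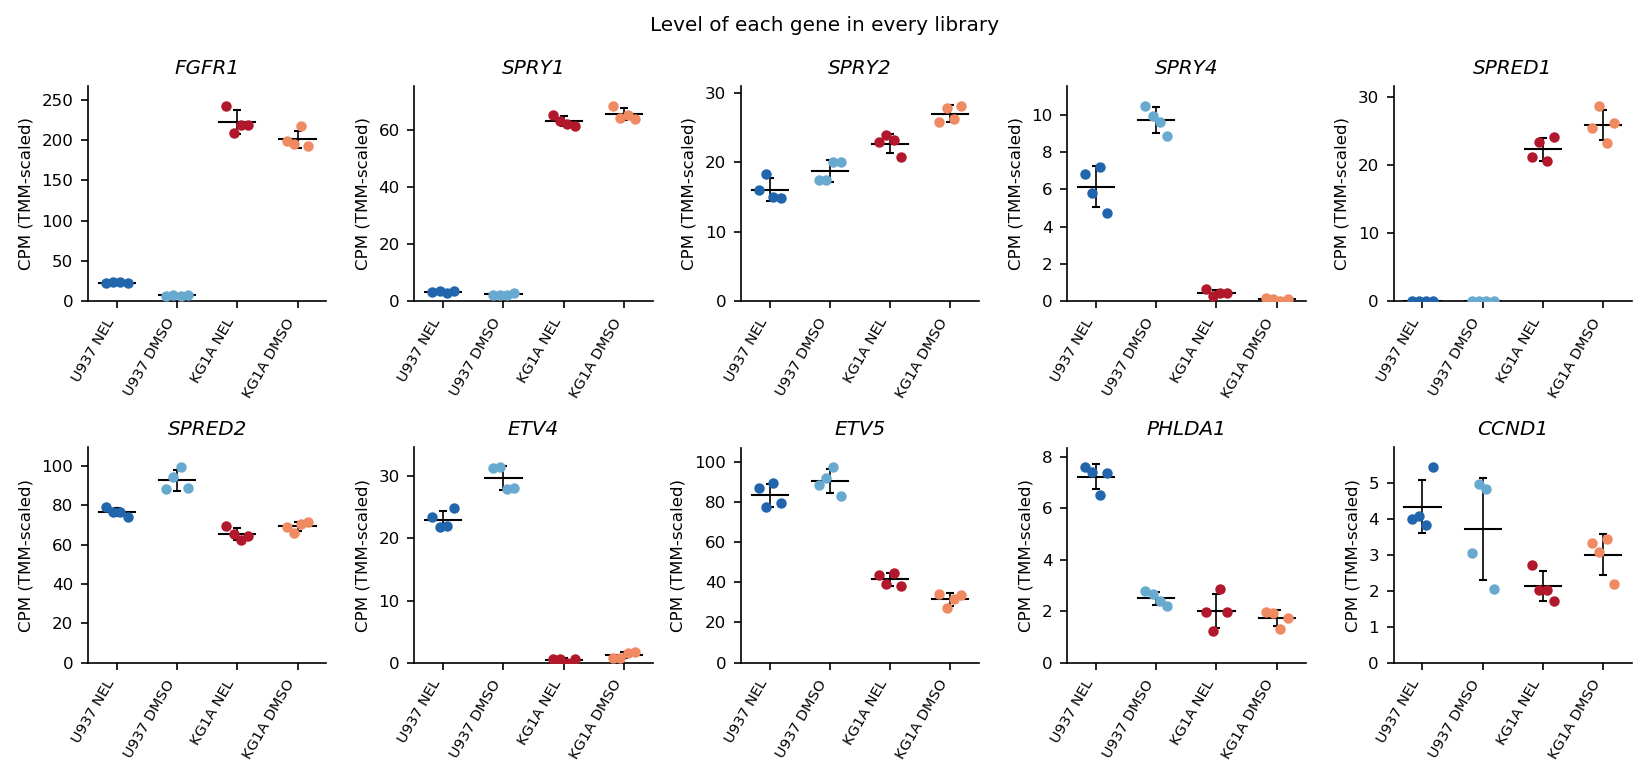
TMM-scaled CPM (vertical axis, linear from 0) of each of the 10 genes in every library, by group (points), with the mean and SD of 4 libraries. FGFR1 sits at 193 to 243 CPM in KG1A and at 6.25 to 23.6 CPM in U937, where the NEL libraries lie above the DMSO libraries.

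Whether NEL acted differently in U937 and in KG1A was tested as the interaction over all 16 libraries, in which 47.4% of 16117 genes were called, 21.1% higher and 26.3% lower. Relative to KG1A, the effect in U937 was higher for FGFR1, SPRY1, ETV4 and PHLDA1 and lower for SPRY4, SPRED2 and ETV5. It was not called for SPRY2, SPRED1 or CCND1. All 10 genes passed the filter of this fit, but SPRY4 and ETV4 did so through U937, and SPRED1 through KG1A, being close to 0 in the other line. The count of 7 is therefore given as a description. The median difference was 0.35 for the 10 genes and -0.03 over all tested genes.

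The lines themselves differed in most of the 10 genes. Without NEL, SPRY4, SPRED2, ETV4, ETV5 and PHLDA1 were higher in U937 than in KG1A and FGFR1, SPRY1, SPRY2 and SPRED1 were lower, CCND1 not being called. Those 5 and 4 stand beside 43% of genes called higher and 43.4% called lower (86.4% of 15181 in all). Under NEL, CCND1 joined the higher genes, giving 6 higher and 4 lower, beside 42.3% and 42.9% (85.1% of 15602 in all). SPRY4, ETV4 and SPRED1 passed the filter of these fits through the line where they are high and so had to differ, and both pairs of counts are a description.

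**Figure D2:**
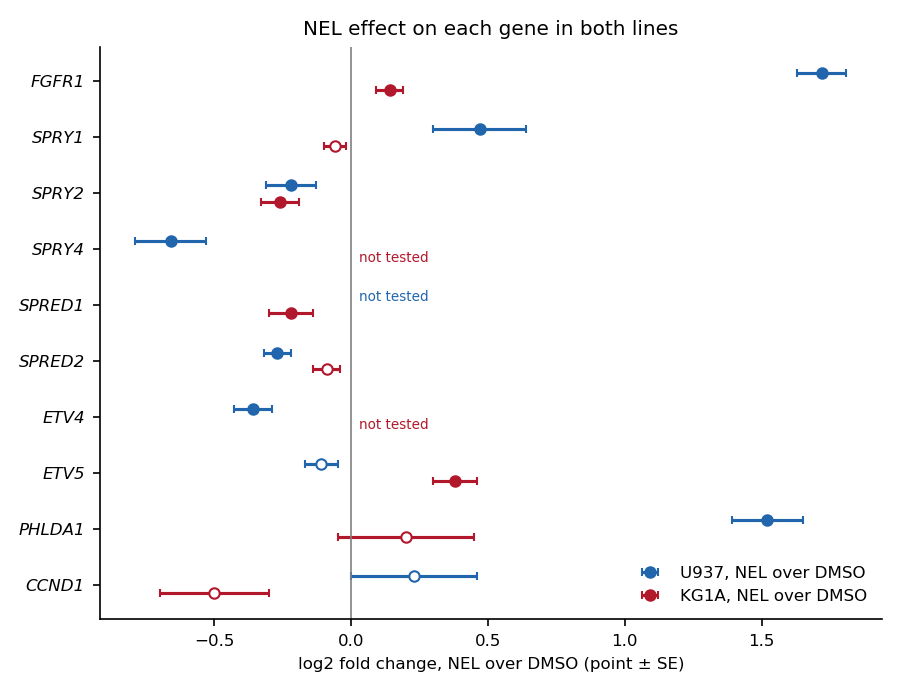
Log2 fold change of NEL over DMSO (horizontal axis, points) with its SE (bars) for each gene, U937 above KG1A. Filled points were called at an adjusted p under 0.05 and open points were not. FGFR1 and PHLDA1 stand at 1.72 and 1.52 in U937, the other tested values lying between -0.66 and 0.47.

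FGFR1 (ENSG00000077782; hg19 chromosome 8, 38268656 to 38326352, minus strand) encodes the receptor and, with PHLDA1, showed one of the large NEL effects in U937. It had 22.9, 23.3, 23.6 and 22.5 CPM in U937 with NEL, against 6.35, 7.61, 6.25 and 7.88 CPM in U937 with DMSO (libraries 1 to 4). Every NEL library lay well above every DMSO library, and the 4 NEL values were close together. The mean was 23.1 ± 0.473 CPM with NEL and 7.02 ± 0.843 CPM with DMSO (SD, n = 4 each), a log2 fold change of 1.72 ± 0.09 (3.29-fold, adjusted p = 1.03e-09). The change was 1.88 in odd-numbered and 1.57 in even-numbered libraries.

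KG1A held far more of this transcript, and NEL moved it little relative to that level. FGFR1 had 243, 209, 219 and 219 CPM in KG1A with NEL, against 199, 195, 217 and 193 CPM in KG1A with DMSO. The groups overlapped, since DMSO library 3 lay above NEL library 2. The rise of 0.14 ± 0.05 was called (adjusted p = 0.0351), and it was 0.15 in odd-numbered and 0.14 in even-numbered libraries. It did not pass without KG1A DMSO library 1, 2 or 4 or KG1A NEL library 1 (adjusted p from 0.0753 to 0.108). The NEL effect was larger in U937 than in KG1A by 1.57 ± 0.10 (adjusted p = 3.99e-11). A gene without a symbol, ENSG00000255201, overlaps FGFR1 on the opposite strand and had 28 counts in U937 with NEL, 14 in U937 with DMSO, 59 in KG1A with NEL and 12 in KG1A with DMSO. Whether the counting used strand is not given in the sources used here, so reads of such overlapping pairs cannot be told apart.

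Without NEL, FGFR1 was 30.3-fold lower in U937 than in KG1A (log2 fold change -4.92 ± 0.07, adjusted p = 7.66e-19). Under NEL it was 9.68-fold lower in U937 (-3.27 ± 0.06, adjusted p = 1.64e-16). No FGFR1 value of U937 reached the lowest value of KG1A. FGFR1OP2, the partner in the known KG-1 fusion, was also lower in U937, at 64.9 ± 5.2 CPM with NEL and 53.2 ± 2.84 CPM with DMSO, than in KG1A, at 167 ± 10.3 CPM with NEL and 167 ± 3.76 CPM with DMSO (SD, n = 4 each). It rose with NEL in U937 (0.29 ± 0.06, adjusted p = 0.000787) and was not called in KG1A (-0.00 ± 0.04, adjusted p = 0.943).

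The other receptors of the family were low or differed between the lines. FGFR3, a receptor kinase of the same family, had 7.34 ± 0.43 CPM in U937 with NEL and 3.16 ± 0.651 CPM with DMSO (SD, n = 4 each), a rise of 1.22 ± 0.14 (adjusted p = 3.38e-06). FGFRL1, which lacks the kinase domain, had 33.1 ± 1.6 CPM in U937 with NEL and 40.2 ± 2.15 CPM with DMSO, a fall (log2 fold change -0.28 ± 0.06, adjusted p = 0.000816). In KG1A both stayed at or under 1.06 CPM in every library. FGFR2 and FGFR4 did not exceed 1.2 CPM in any library of either line and were not tested. By RPKM, FGFR1 made up most of the receptor signal in KG1A, at 17.9 ± 1.03 with NEL and 15.6 ± 0.865 with DMSO (SD, n = 4 each), while FGFRL1 exceeded it in U937, at 8.23 ± 0.421 with NEL and 9.37 ± 0.435 with DMSO against FGFR1 values of 1.87 ± 0.0368 and 0.534 ± 0.0643.

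The genes whose pattern over the 16 libraries was most like that of FGFR1 were PRR5L, CMPK2 and EVL, out of 7467 genes compared by the root mean square difference of centred log2(RPKM + 0.5) profiles. The differences were 0.0946 for PRR5L and 0.161 for CMPK2 and for EVL. PRR5L had 2.62 ± 0.379 RPKM in U937 with NEL, 0.889 ± 0.143 RPKM in U937 with DMSO, 24.1 ± 0.634 RPKM in KG1A with NEL and 21.4 ± 0.923 RPKM in KG1A with DMSO (SD, n = 4 each). Its product binds mTOR complex 2.

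SPRY1 (ENSG00000164056; hg19 chromosome 4, 124317950 to 124324910, plus strand) was the main Sprouty transcript of KG1A and scarce in U937. It had 3.11, 3.66, 2.7 and 3.48 CPM in U937 with NEL, against 1.97, 2.3, 2.23 and 2.83 CPM in U937 with DMSO. NEL library 3 lay below DMSO library 4, so the groups overlapped. The rise of 0.47 ± 0.17 was called (adjusted p = 0.0243) and was 0.47 in odd-numbered and 0.48 in even-numbered libraries. It lost the call when U937 DMSO library 1, 2 or 3 or U937 NEL library 2 or 4 was left out (adjusted p from 0.0501 to 0.0732), in the DESeq2 test (0.0717), and in the odd-numbered (0.138) and even-numbered (0.0913) libraries alone. In KG1A SPRY1 had 61.3 to 65.3 CPM with NEL, against 63.7 to 68.5 CPM with DMSO, and it was not called (-0.06 ± 0.04, adjusted p = 0.265). The NEL effect was higher in U937 than in KG1A by 0.53 ± 0.15 (adjusted p = 0.0114), which missed the threshold in the odd-numbered (0.113) and even-numbered (0.0903) libraries alone. Between the lines SPRY1 was 29.6-fold lower in U937 without NEL (-4.89 ± 0.09, adjusted p = 9.25e-18) and 19.4-fold lower under NEL (-4.28 ± 0.08, adjusted p = 6e-16).

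SPRY2 (ENSG00000136158; hg19 chromosome 13, 80910111 to 80915086, minus strand) was the Sprouty found at a similar order of level in both lines, and it fell in both. It had 16, 18.4, 15 and 14.9 CPM in U937 with NEL, against 17.5, 17.4, 20.1 and 20.1 CPM in U937 with DMSO. In KG1A it had 22.9, 23.9, 23.3 and 20.8 CPM with NEL, against 25.8, 27.9, 26.3 and 28.2 CPM with DMSO. The groups overlapped in U937 through NEL library 2 and did not overlap in KG1A. The log2 fold change was -0.22 ± 0.09 in U937 (adjusted p = 0.0394; -0.28 in odd-numbered and -0.16 in even-numbered libraries) and -0.26 ± 0.07 in KG1A (adjusted p = 0.00571; -0.17 and -0.33). The U937 call was lost without U937 DMSO library 3 or 4 or U937 NEL library 1, 3 or 4 (adjusted p from 0.0695 to 0.103), in the DESeq2 test (0.0641), in limma-trend on RPKM (0.185 and 0.187) and in the even-numbered libraries alone (0.223), and the KG1A call in the odd-numbered libraries alone (0.12). The difference between the lines was 0.03 ± 0.11 (adjusted p = 0.906), and its sign changed with the libraries used. SPRY2 was lower in U937 than in KG1A both without NEL (-0.61 ± 0.07, adjusted p = 7.93e-07) and under NEL (-0.51 ± 0.08, adjusted p = 4.47e-05).

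SPRY4 (ENSG00000187678; hg19 chromosome 5, 141689992 to 141706020, minus strand) was the Sprouty of U937 that KG1A nearly lacked. It had 6.83, 5.78, 7.22 and 4.75 CPM in U937 with NEL, against 10.5, 9.92, 9.64 and 8.85 CPM in U937 with DMSO. All NEL libraries lay below all DMSO libraries. It fell by 0.66 on the log2 scale (SE 0.13, adjusted p = 0.000373), and the change was -0.52 in odd-numbered and -0.82 in even-numbered libraries. In KG1A there were 20 counts over the NEL libraries, against 4 over the DMSO libraries. The ratio of counts per library total, without TMM scaling, was 5.06. Its exact 95% interval of 1.69 to 20.3 covers counting error only. SPRY4 did not pass the filter in KG1A. Without a filter it was called higher with NEL there (2.14 ± 0.69, adjusted p = 0.016), on those counts. The interaction of -2.81 ± 0.63 (adjusted p = 0.00076) rests on them too. By the same measure, the ratio of U937 to KG1A was 103 (40 to 380) without NEL and 13.7 (8.71 to 22.8) under NEL. SPRY4-AS1, antisense to it, had 23 counts in U937 with NEL, 13 in U937 with DMSO and 0 in KG1A.

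By RPKM, the share of each Sprouty in the sum of SPRY1, SPRY2 and SPRY4 differed between the lines far more than with NEL. SPRY2 held 72.4 ± 1.78% in U937 with NEL and 71.8 ± 1.97% with DMSO, and 30.2 ± 1.15% in KG1A with NEL and 33.2 ± 1.65% with DMSO (SD, n = 4 each). SPRY1 held 12.2 ± 1.51% and 7.41 ± 0.94% in U937 with NEL and with DMSO, and 69.5 ± 1.08% and 66.7 ± 1.63% in KG1A with NEL and with DMSO. SPRY4 held 15.4 ± 2.97% and 20.8 ± 2.46% in U937 with NEL and with DMSO, and under 0.5% in every KG1A library.

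**Figure D3:**
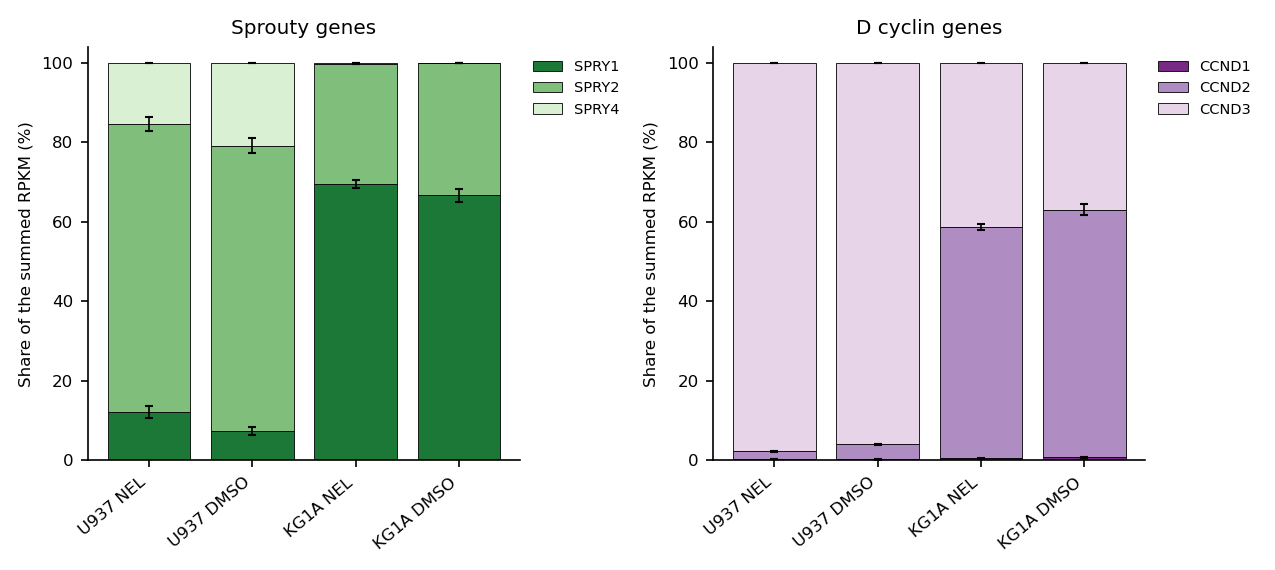
Mean share (%) of each gene in the summed RPKM of SPRY1, SPRY2 and SPRY4 (left) and the 3 D cyclin genes (right), by group, with the SD of 4 libraries as bars. SPRY2 fills over 70% of the Sprouty sum in U937 and SPRY1 over 65% in KG1A. CCND1 is a sliver of under 1% in every group, CCND3 taking over 95% of the D cyclin sum in U937.

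SPRED1 (ENSG00000166068; hg19 chromosome 15, 38544527 to 38649450, plus strand) was present in KG1A and nearly absent from U937. It had 1 count over the 4 U937 libraries with NEL and 1 count over the 4 with DMSO, against 994 counts in KG1A with NEL and 1119 counts in KG1A with DMSO. The U937 to KG1A ratio of counts per library total, without TMM scaling, was 0.000965 (exact 95% interval 2.44e-05 to 0.00539) under NEL and 0.000841 (2.13e-05 to 0.0047) without it. In KG1A the values were 21.2, 23.5, 20.7 and 24.1 CPM with NEL, against 25.5, 28.8, 23.3 and 26.2 CPM with DMSO. NEL libraries 2 and 4 lay above DMSO library 3, so the groups overlapped. The fall (log2 fold change -0.22 ± 0.08, adjusted p = 0.0317) was -0.22 in odd-numbered and -0.21 in even-numbered libraries. It lost its call without KG1A DMSO library 2 or 4 or KG1A NEL library 1 or 3 (adjusted p from 0.0635 to 0.108), in the DESeq2 test (0.0543), in limma-trend on RPKM (0.197 and 0.2) and in the odd-numbered libraries alone (0.0502). It did not pass the filter in U937, and no value for the difference between the lines is read from so few counts.

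SPRED2 (ENSG00000198369; hg19 chromosome 2, 65537985 to 65659771, minus strand) was among the most abundant of the 10 transcripts in both lines. It had 79.2, 76.4, 76.8 and 74.1 CPM in U937 with NEL, against 88.1, 94.6, 99.4 and 88.6 CPM in U937 with DMSO. The groups did not overlap. It fell in U937 (-0.27 ± 0.05, adjusted p = 0.000214), and by the same -0.27 in either library set. KG1A had 62.1 to 69.5 CPM with NEL, against 66.1 to 71.7 CPM with DMSO, a log2 fold change of -0.09 ± 0.05 that was not called (adjusted p = 0.136). It was called with the replicate block (adjusted p = 0.0437) and in no other alternative run on KG1A. The NEL effect was lower in U937 by 0.19 (SE 0.07, adjusted p = 0.0254). That call was lost with DESeq2 size factors (-0.10, adjusted p = 0.237) or the DESeq2 test (-0.10, adjusted p = 0.296), in limma-trend on RPKM with a pseudocount of 0.1 (0.0522), in the odd-numbered (0.055) and even-numbered (0.0555) libraries alone, and without KG1A DMSO library 2, KG1A NEL library 1, U937 DMSO library 3 or U937 NEL library 4 (adjusted p from 0.0545 to 0.0609). SPRED2 was slightly higher in U937 than in KG1A without NEL (0.34 ± 0.05, adjusted p = 1.25e-05) and under NEL (0.23 ± 0.05, adjusted p = 0.000383).

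RefSeq promoter windows of GRCh38.p14 were found for 6 of the 10 genes, 10 windows in all, each 250 bases before to 50 bases after a start site. The genes were SPRY1, SPRY2, SPRY4, SPRED1, SPRED2 and PHLDA1. Shown are the 251 bases up to and including the first transcribed base of SPRED1 and SPRY4, which are each nearly silent in the opposite line, and of PHLDA1, whose NEL effect was large in U937, with CG dinucleotides in capitals. The second SPRED2 window is shown for the AP-1 match that ends at its start site, in capitals. On the minus strand this window lies downstream of the first SPRED2 window (chr2:65432550-65432849). Counts per gene cannot show which start of a gene was used.
SPRED1 promoter, chr15:38252586-38252836, strand plus: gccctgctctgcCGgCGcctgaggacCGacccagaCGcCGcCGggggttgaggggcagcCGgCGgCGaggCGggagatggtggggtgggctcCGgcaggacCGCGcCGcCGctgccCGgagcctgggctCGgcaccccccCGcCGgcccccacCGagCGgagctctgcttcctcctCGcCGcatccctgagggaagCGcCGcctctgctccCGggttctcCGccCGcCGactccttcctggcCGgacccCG
SPRY4 promoter, chr5:142324247-142324497, strand minus: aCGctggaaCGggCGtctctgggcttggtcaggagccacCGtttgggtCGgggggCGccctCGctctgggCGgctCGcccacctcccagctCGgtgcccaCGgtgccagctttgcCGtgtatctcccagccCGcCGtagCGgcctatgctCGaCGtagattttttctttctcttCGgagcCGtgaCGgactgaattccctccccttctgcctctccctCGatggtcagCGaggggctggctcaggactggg
PHLDA1 promoter, chr12:76031776-76032026, strand minus: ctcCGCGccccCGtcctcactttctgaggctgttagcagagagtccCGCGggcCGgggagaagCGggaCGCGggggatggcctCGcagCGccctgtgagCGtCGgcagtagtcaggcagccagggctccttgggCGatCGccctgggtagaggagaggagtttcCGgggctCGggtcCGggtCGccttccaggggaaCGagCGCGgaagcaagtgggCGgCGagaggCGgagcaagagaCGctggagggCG
SPRED2 promoter, chr2:65366778-65367028, strand minus: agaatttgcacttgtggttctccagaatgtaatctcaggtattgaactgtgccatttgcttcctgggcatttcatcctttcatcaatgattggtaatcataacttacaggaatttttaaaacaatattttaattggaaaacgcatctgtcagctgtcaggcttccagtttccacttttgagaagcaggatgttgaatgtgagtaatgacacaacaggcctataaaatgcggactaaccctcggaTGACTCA

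The CG counts of these windows were 31 for SPRED1, 22 for SPRY4 and 27 for PHLDA1, against a median of 11 over all 35116 windows of the same length, and 3 for the second SPRED2 window. The SPRED1 and SPRY4 windows had 78.5% and 65.7% G and C, against a median of 58.2%. Of all windows, 90.2% held no more CG than that of SPRED1, and 73.7% no more than that of SPRY4. Such counts were not particular to genes nearly silent in a line. The SPRY1 windows had 9 and 24, the SPRY2 windows 23, 13 and 5, and the first SPRED2 window 19. Searched on both strands in the 300-base windows, AP-1 (TGANTCA), CRE (TGACGTCA), ETS (CCGGAAGT), capicua (TNAATGNA), E-box (CACGTG), E2F (TTTNGCGC) and the CArG box were found in 7.71, 1.85, 4.14, 11.1, 7.26, 1.79 and 1.29% of all windows. No stretch that fits CRE holds an AP-1 match. Among the 10 windows of these genes the search gave 2 AP-1 matches, both in the second SPRED2 window, at -6 to 0 (TGACTCA, with the first transcribed base as 0) and at 34 to 40 (TGAATCA). A match is a description of the letters only.

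ETV4 (ENSG00000175832; hg19 chromosome 17, 41605212 to 41656988, minus strand) was a U937 transcript and fell there with NEL. It had 23.4, 21.9, 22 and 24.9 CPM in U937 with NEL, against 31.4, 31.5, 27.9 and 28.2 CPM in U937 with DMSO. The groups did not overlap, and the log2 fold change was -0.36 ± 0.07 (adjusted p = 0.000416), -0.38 in odd-numbered and -0.34 in even-numbered libraries. KG1A had 19 counts over the NEL libraries and 52 over the DMSO libraries and did not pass the filter there. Without a filter ETV4 was called lower with NEL in KG1A (-1.48 ± 0.44, adjusted p = 0.0088). The interaction of 1.11 ± 0.44 (adjusted p = 0.0442) rests on these counts. It lost the call without any of 9 libraries (KG1A DMSO 3 or 4, KG1A NEL 2, 3 or 4, U937 DMSO 3 or 4, U937 NEL 1 or 4; adjusted p from 0.0503 to 0.141) and was 0.71 without KG1A NEL library 3, which had 0 counts. It was not called in limma-trend on RPKM with a pseudocount of 0.5 (0.16, adjusted p = 0.446) or 0.1 (0.73, adjusted p = 0.137). In the odd-numbered libraries it was 1.46 and in the even-numbered 0.85 (adjusted p = 0.165). ETV4 was higher in U937 than in KG1A. By counts per library total, without TMM scaling, it was 24.2-fold higher (18.4 to 32.6) without NEL and 54.3-fold (34.6 to 90.6) under NEL. DHX8, which overlaps it on the opposite strand, was abundant in both lines, with 2759 counts in U937 with NEL, 3101 in U937 with DMSO, 2778 in KG1A with NEL and 3115 in KG1A with DMSO.

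ETV5 (ENSG00000244405; hg19 chromosome 3, 185764097 to 185828107, minus strand), the close relative of ETV4, was instead present in both lines and rose in KG1A. It had 43.6, 39.4, 44.6 and 38.1 CPM in KG1A with NEL, against 34.1, 27, 31.8 and 33.6 CPM in KG1A with DMSO. All NEL values lay above all DMSO values, and the log2 fold change was 0.38 ± 0.08 (adjusted p = 0.000903), 0.42 in odd-numbered and 0.35 in even-numbered libraries. U937 had 77.6 to 89.5 CPM with NEL, against 83.1 to 97.4 CPM with DMSO, and the groups overlapped. Its change there of -0.11 ± 0.06 was not called (adjusted p = 0.117), but was with the replicate block (-0.11, adjusted p = 0.00986), with the library set as covariate (0.00929), on summed libraries (0.0114), in the even-numbered libraries alone (-0.15, adjusted p = 0.0335) and without U937 DMSO library 4 (-0.15, adjusted p = 0.0338). The NEL effect was lower in U937 than in KG1A by 0.50 on the log2 scale (SE 0.10, adjusted p = 0.000285), and -0.50 in both library sets. ETV5 was 2.69-fold higher in U937 without NEL (1.43 ± 0.07, adjusted p = 6.19e-12) and 2.01-fold higher under NEL (1.01 ± 0.06, adjusted p = 8.15e-10). DGKG overlaps ETV5 on the same strand, with 1137 counts in U937 with NEL, 507 in U937 with DMSO, 294 in KG1A with NEL and 330 in KG1A with DMSO.

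The third gene of the PEA3 group, ETV1, is a KG1A transcript: it had 0 counts in all 8 U937 libraries. In KG1A it had 6.87 ± 1.41 CPM with NEL and 3.48 ± 0.493 CPM with DMSO (SD, n = 4 each), a rise of 0.97 ± 0.17 (adjusted p = 0.000282). CIC, the repressor capicua that holds PEA3-group genes down until ERK relieves it, was not called in U937 (0.12 ± 0.08, adjusted p = 0.196) or in KG1A (-0.08 ± 0.08, adjusted p = 0.431). It was lower in U937 than in KG1A without NEL (-1.32 ± 0.08, adjusted p = 5.04e-11) and under NEL (-1.06 ± 0.08, adjusted p = 6.4e-09).

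PHLDA1 (ENSG00000139289; hg19 chromosome 12, 76419227 to 76427712, minus strand) had the other large rise in U937. It had 7.61, 7.4, 6.52 and 7.38 CPM in U937 with NEL, against 2.77, 2.66, 2.41 and 2.21 CPM in U937 with DMSO. The groups were far apart, and the log2 fold change was 1.52 ± 0.13 (2.88-fold, adjusted p = 1.5e-07), 1.44 in odd-numbered and 1.61 in even-numbered libraries. KG1A had 1.98, 1.23, 2.85 and 1.98 CPM with NEL, against 1.98, 1.94, 1.3 and 1.73 CPM with DMSO. These values overlapped widely and were not called (0.20 ± 0.25, adjusted p = 0.552). The odd-numbered libraries gave 0.55 and the even-numbered ones -0.20, and without KG1A NEL library 3 the value was -0.01. The NEL effect was higher in U937 by 1.32 ± 0.28 (adjusted p = 0.000421), with 0.89 in the odd-numbered libraries alone, where it missed the threshold (adjusted p = 0.0686), and 1.80 in the even-numbered. Without NEL, PHLDA1 was higher in U937 by 0.44 ± 0.20 (adjusted p = 0.0445), a call lost with the replicate block (adjusted p = 0.0691), with the library set as covariate (0.0545), on summed libraries (0.0624), in the odd-numbered (0.0817) and even-numbered (0.35) libraries alone, in the DESeq2 test (0.131), without the filter (0.0681) and without KG1A DMSO library 3 or 4 or U937 DMSO library 1, 2 or 3 (adjusted p from 0.0568 to 0.18). Under NEL it was higher in U937 by 1.84 ± 0.18 (adjusted p = 1.28e-07). Its antisense gene PHLDA1-AS1 had 34 counts in U937 with NEL, 16 in U937 with DMSO, 21 in KG1A with NEL and 11 in KG1A with DMSO.

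CCND1 (ENSG00000110092; hg19 chromosome 11, 69455855 to 69469242, plus strand), the cyclin D1 gene, was low and was not called for NEL in either line. It had 3.98, 4.08, 3.83 and 5.43 CPM in U937 with NEL, against 3.04, 4.96, 4.82 and 2.04 CPM in U937 with DMSO. In KG1A it had 2.7, 2.03, 2.02 and 1.71 CPM with NEL, against 3.31, 3.06, 3.44 and 2.19 CPM with DMSO. The groups overlapped in both lines. The log2 fold change was 0.23 ± 0.23 in U937 (adjusted p = 0.405; -0.01 in odd-numbered and 0.45 in even-numbered libraries) and -0.50 ± 0.20 in KG1A (adjusted p = 0.0521; -0.51 and -0.49). In KG1A it was called with the replicate block (-0.51, adjusted p = 0.0257) and without KG1A DMSO library 4 or KG1A NEL library 1 (adjusted p from 0.0195 to 0.0257). It was not called there in the odd-numbered (0.123) or even-numbered (0.208) libraries alone. The difference of 0.72 ± 0.34 between the lines was not called (adjusted p = 0.0855) but was with the block (0.73, adjusted p = 0.0189), with the library set as covariate (0.0206), on summed libraries (0.0213), in the even-numbered libraries alone (0.93, adjusted p = 0.0412) and without KG1A DMSO library 4 or U937 DMSO library 2 or 3 (adjusted p from 0.035 to 0.0494). Between the lines CCND1 was not called without NEL (0.23 ± 0.25, adjusted p = 0.398) and was higher in U937 under NEL (1.03 ± 0.18, adjusted p = 9.87e-05). LTO1, opposite to it, had 691 counts in U937 with NEL, 965 in U937 with DMSO, 1558 in KG1A with NEL and 1649 in KG1A with DMSO.

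Cyclin D1 was a minor D cyclin. By RPKM, CCND3 held 97.8 ± 0.112% of the D cyclin sum in U937 with NEL and 96 ± 0.123% with DMSO, against 41.3 ± 0.765% in KG1A with NEL and 37 ± 1.28% with DMSO (SD, n = 4 each). CCND2 held 58.2 ± 0.768% in KG1A with NEL and 62.3 ± 1.36% with DMSO, and CCND1 under 1% in every group. CCND2 fell with NEL in U937 (-0.88 ± 0.05, adjusted p = 1.54e-09) and in KG1A (-0.11 ± 0.04, adjusted p = 0.0331), and CCND3 rose in KG1A (0.15 ± 0.05, adjusted p = 0.0253). CDKN1A, the inhibitor p21, rose in U937 (2.34 ± 0.12, adjusted p = 7.46e-10) and in KG1A (1.61 ± 0.16, adjusted p = 1.67e-06). Neither of the other inhibitors listed rose in both lines. CDKN1B fell in U937 (-0.65 ± 0.04, adjusted p = 5.98e-09) and in KG1A (-0.23 ± 0.05, adjusted p = 0.00109). CDKN2C rose in U937 (0.38 ± 0.05, adjusted p = 2.44e-05) and fell in KG1A (-0.30 ± 0.03, adjusted p = 6.66e-06).

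**Figure D4:**
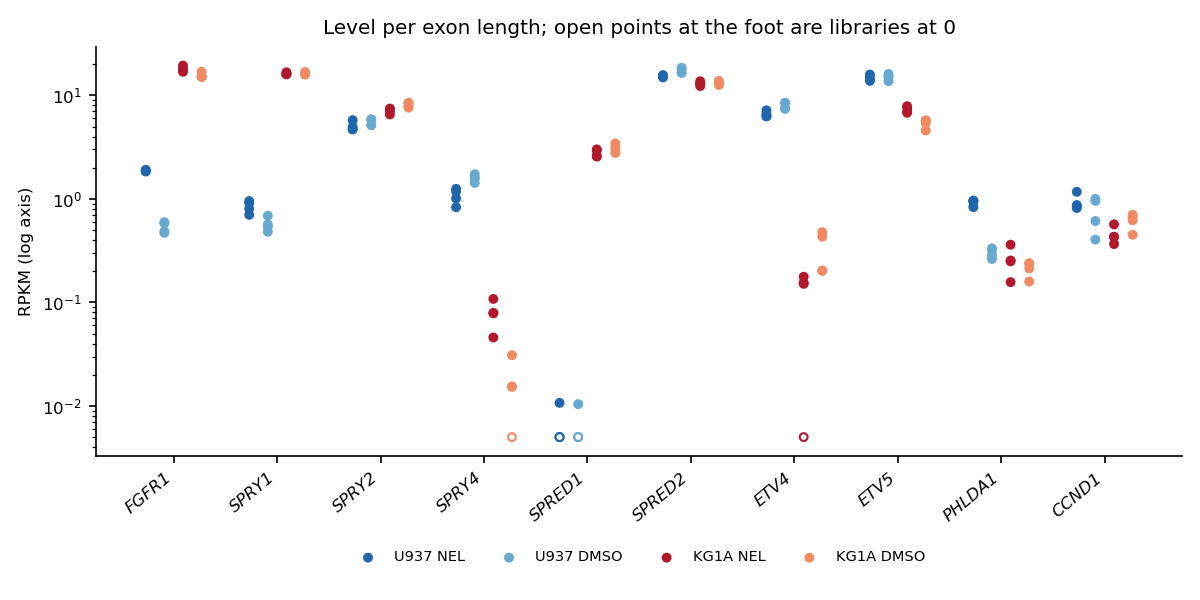
RPKM (log axis) of each gene in every library, with groups in colour from U937 NEL to KG1A DMSO and libraries at 0 drawn as open points at the foot. FGFR1, SPRY1 and SPRED1 are high in KG1A, SPRY4 and ETV4 in U937, and SPRED2 is among the most abundant of the genes in both.

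Ranked by RPKM within a group, SPRED2 and ETV5 led in U937 (15.3 and 14.8 RPKM with NEL, their ranges overlapping; 17.4 and 15 RPKM with DMSO, their ranges apart). ETV4 and SPRY2 followed. In KG1A with NEL the order was FGFR1 (17.9), SPRY1 (16.3) and SPRED2 (13), and in KG1A with DMSO it was SPRY1 (16.2), FGFR1 (15.6) and SPRED2 (13.2), the first pair overlapping. Under NEL, SPRY4, CCND1, PHLDA1 and SPRY1 could not be ordered beyond their spread in U937, each neighbour overlapping the next.

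The wider pathway was described from lists that were chosen with results known. Their counts stand beside 34.6% of all tested genes called higher and 34.7% lower in U937, and 23.6% in each direction in KG1A, and their medians beside -0.00 over all genes in both lines. Among ERK-induced transcripts other than the 10, 4 rose and 7 fell of 11 tested in U937, and 5 rose and 2 fell of 11 in KG1A. The median log2 fold change was -0.36 in U937 and 0.30 in KG1A. DUSP4, DUSP5 and DUSP6 are counted in this list and among the negative regulators below. MYC fell in U937 to 78.6 ± 3 CPM with NEL, against 441 ± 7 CPM with DMSO (SD, n = 4 each; -2.49 ± 0.04, adjusted p = 6.21e-14), and in KG1A by less (-0.46 ± 0.04, adjusted p = 1.53e-07). FOSL1, an AP-1 subunit, fell in U937 (-2.37 ± 0.12, adjusted p = 9.15e-10), and VEGFA rose in U937 (0.85 ± 0.04, adjusted p = 2.31e-10) and fell in KG1A (-0.50 ± 0.06, adjusted p = 7.79e-06). DUSP6, the phosphatase that is the usual readout of ERK feedback, rose in U937 (0.14 ± 0.05, adjusted p = 0.0135) and in KG1A (0.30 ± 0.04, adjusted p = 3.54e-05). DUSP4 rose in both lines (0.28 ± 0.05 in U937, adjusted p = 0.000223; 1.05 ± 0.12 in KG1A, adjusted p = 6.02e-06), while DUSP5 fell in U937 (-0.36 ± 0.12, adjusted p = 0.0141) and rose in KG1A (0.86 ± 0.11, adjusted p = 1.45e-05).

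Of 13 FGF receptor adaptors and effectors tested in U937, 9 rose and 2 fell, and of 14 tested in KG1A, 4 rose and 2 fell. The list also holds FGFR1OP2, named above as a fusion partner, which is counted among the genes that rose in U937. The median log2 fold change was 0.31 in U937 and 0.03 in KG1A. The adaptor GAB2 rose in U937 (0.72 ± 0.05, adjusted p = 1.05e-08) and in KG1A (1.58 ± 0.09, adjusted p = 4.29e-09), and the RAS exchange factor SOS2 rose in U937 (0.75 ± 0.05, adjusted p = 6.34e-09) and was not called in KG1A (0.03 ± 0.04, adjusted p = 0.609). Of the 11 genes from RAS to ERK, 4 rose and 4 fell in U937, and 1 rose and 2 fell in KG1A, with medians of 0.02 and -0.08 in U937 and in KG1A. The U937 counts are near the background. The MEK gene MAP2K1 rose in U937 (0.76 ± 0.05, adjusted p = 2.39e-08) and was not called in KG1A (0.10 ± 0.05, adjusted p = 0.13). Of further negative regulators, 7 rose and 4 fell of 15 in U937, and 5 rose and 4 fell of 14 in KG1A, with medians of 0.09 and 0.03 in U937 and in KG1A. LZTR1, which marks RAS proteins for degradation, fell in both lines (-0.72 ± 0.06 in U937, adjusted p = 5.53e-08; -0.60 ± 0.05 in KG1A, adjusted p = 6.72e-07). The RAS inactivator NF1, partner of the SPRED proteins, rose in U937 (0.39 ± 0.04, adjusted p = 1.76e-06) and fell in KG1A (-0.25 ± 0.03, adjusted p = 3.73e-05), and the difference of 0.63 ± 0.05 was called (adjusted p = 1.24e-09).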

How the data were processed

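Stranded polyA RNA libraries were made with a Kapa kit, per the labels' protocols. The submitters' processing notes name bcl2fastq 2.18.0.12, the aligner TopHat2, the counter HTSeq 0.11.2 and the build hg19 (GRCh37). The annotation, and whether counting used strand, are not given in the sources used. The authors deposited raw counts per gene for the 16 libraries, and RPKM. Each deposited RPKM was the count divided by exon length and library total (deviation at most 1.86e-07), so RPKM served for levels between genes and for alternatives. All columns of values matched a sample, with 0 left over. Symbols were matched for 24496 of 34618 gene IDs.

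Tests of counts used edgeR 4.0.16 (quasi-likelihood, TMM, filterByExpr with a minimum count of 10 and total of 15) under R 4.3.3. They compared NEL with DMSO in each line, took the interaction over 16 libraries, and set U937 against KG1A in DMSO and in NEL libraries; the comparisons share libraries. CPM used TMM factors of all libraries. SE is the log2 fold change over the square root of F. The procedure was tested on simulated counts, which held no odd and even sets and so do not show its error rate in these data. Alternatives were DESeq2 1.42.0 (size factors, test), limma-trend (3.58.1) on log2(RPKM + 0.5) or log2(RPKM + 0.1), no or a strict filter (1 CPM in 4 libraries), a replicate block, a library-set covariate, each set alone, summed libraries, 1 model of all libraries, an adjusted p under 0.01, and each library left out. Same-numbered NEL and DMSO libraries deviated together (8 correlations, 0.286 to 0.37), which meets the rule used here for a block, but differently numbered libraries of the same odd or even set did so as strongly (0.285 to 0.401), so these values show the sets and not pairs by number. Figures used Python 3.11.15 and matplotlib 3.10.9.

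Members and lists were chosen with earlier results of these data known. Named were the 10 genes, DUSP6, FGFR1OP2, CIC, CCND2 and CCND3, and up to 3 genes of each list with the smallest adjusted p in a comparison. The 3 genes (mean of at least 5 RPKM) with a profile nearest to FGFR1 were named too.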

Additional observations from a re-analysis of the deposited data

Results flagged for a closer look

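The NEL effect differed between U937 and KG1A, by the interaction test, for 7 of the 10 genes, beside 47.4% of all 16117 genes tested. The difference, U937 minus KG1A on the log2 scale, was 1.57 for FGFR1, 0.53 for SPRY1, 1.11 for ETV4 and 1.32 for PHLDA1, and -2.81 for SPRY4, -0.19 for SPRED2 and -0.50 for ETV5. SPRY4 and ETV4 passed the filter through U937, and their values rest on few counts in KG1A.

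In 4 of 40 groups of 4 libraries, 1 library stood far from the other 3. Chance flags about 1 in 20 groups of continuous values, a rate that does not apply to the SPRED1 groups, where a single count sets 1 library apart by construction. CCND1 reached 5.43 CPM in NEL library 4 of U937. ETV4 was at 0 CPM in NEL library 3 of KG1A. SPRED1 had its single count in NEL library 4 of U937 (0.0848 CPM) and in DMSO library 3 of U937 (0.0893 CPM), the other libraries being at 0.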

How the results depend on the processing

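Of 1010 recomputed values of the 10 genes, 911 kept direction and side of the threshold, 66 lost their call, 18 gained one and 15 changed sign; the cause was not tested. In KG1A, the count of genes called higher (2) was 1 at an adjusted p under 0.01 and 1 to 2 with libraries left out. The count called lower (2) was 1 in the DESeq2 test, in limma-trend with either pseudocount and at an adjusted p under 0.01, 0 in the odd-numbered libraries, 4 with summed libraries (CCND1 and ETV4 added, ETV4 passing the filter then), 4 with the replicate block (CCND1 and SPRED2 added), and 1 to 2 with libraries left out. For the interaction, genes called higher (4) were 2 in the odd-numbered libraries and at an adjusted p under 0.01. Sign changes were at values that were not called: KG1A SPRY1 (0.00 in limma-trend with either pseudocount), KG1A PHLDA1 (-0.20 in even-numbered libraries; -0.01 to 0.37 with libraries left out), U937 CCND1 (-0.01 in odd-numbered libraries), and the interactions of SPRY2 (-0.11 in odd-numbered libraries; -0.05 to 0.06 with libraries left out) and SPRED1 (-2.09 and -1.36 to 1.76). The replicate block changed 5 calls (SPRED2 and CCND1 in KG1A, ETV5 in U937, CCND1 in the interaction and PHLDA1 between untreated lines), given beside their results, and no other call of the 10 genes. The share of calls that were higher moved by over 10 points in KG1A under limma-trend (64.5% against 50%) and in the interaction under the DESeq2 test (54.6% against 44.5%). SPRED1 in U937 and SPRY4 and ETV4 in KG1A had few counts at a depth like that of the opposite line, which limits the precision of their ratios.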
